A study of Mus musculus with 12 samples.

Results

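The genes described here encode the constant regions of mouse antibodies and 2 proteins that help to assemble them. They are the heavy chain genes Ighm, Ighd, Ighg1, Ighg2b, Ighg2c, Ighg3 and Igha, the kappa light chain gene Igkc, the joining chain gene Jchain and Mzb1, an endoplasmic reticulum chaperone gene of B cells and plasma cells. They were chosen by name, 10 of the 35599 genes in the table, and all 10 were found once. The values in AE-PF and saline lung were known when the set was drawn up, so that comparison is described for these genes and not tested. Bulk RNA of mouse lung was sequenced in 12 libraries, 4 from each of 3 groups. The ND-RHL group had the challenge and was then given liposomes that carry nintedanib and dexamethasone and bear hyaluronic acid and RGD peptides. The AE-PF group had a combined bleomycin and lipopolysaccharide challenge, which models an acute exacerbation of pulmonary fibrosis, and no treatment. The saline group was the control. Bleomycin scars the lung, lipopolysaccharide is a bacterial cell wall product, nintedanib is a kinase inhibitor and dexamethasone a glucocorticoid. Lungs were taken at the end point of the model, and the sources used here do not give strain, sex, age or times. The labels do not say that the 4 libraries of a group came from separate animals, so the p-values measure the spread between libraries, part of which may be technical.

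An antibody is made of paired heavy and light chains, and the constant region of the heavy chain gives the isotype. Naive B cells express IgM and IgD together from a shared long transcript, and class switching replaces these by IgG, IgA or IgE by cutting out the DNA between. Plasma cells, the secreting descendants of B cells, carry very large amounts of antibody mRNA. The joining chain is built into secreted pentamers of IgM and dimers of IgA, and the polymeric immunoglobulin receptor Pigr carries these across epithelium into the airway.

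The 7 heavy chain genes lie on the minus strand of chromosome 12 in GRCm38, from Ighm at chr12:113418558-113422730 to Igha at chr12:113254830-113260236. Igkc lies at chr6:70726435-70726966 on the plus strand and Jchain at chr5:88519809-88527891 on the minus strand. The IgG genes differ most in the hinge, the flexible stretch whose cysteines join the heavy chains. Their hinge exons are shown because the libraries differed in which IgG gene led. They are exon 2 of each gene in the GENCODE M21 transcripts, written 5′ to 3′ on the coding strand, with cysteine codons in capitals, at chr12:113329844-113329882 (Ighg1), chr12:113307261-113307326 (Ighg2b), chr12:113288263-113288325 (Ighg2c) and chr12:113360529-113360576 (Ighg3).
Ighg1 hinge exon: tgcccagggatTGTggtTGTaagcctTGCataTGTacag
Ighg2b hinge exon: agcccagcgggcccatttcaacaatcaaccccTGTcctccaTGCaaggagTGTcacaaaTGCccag
Ighg2c hinge exon: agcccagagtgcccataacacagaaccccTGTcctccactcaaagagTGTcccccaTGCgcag
Ighg3 hinge exon: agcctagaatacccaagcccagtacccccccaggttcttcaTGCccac
The exons hold 4, 4, 3 and 1 cysteine codons in that order. Over their whole coding sequence Ighg2b and Ighg2c were 85.8% identical, and the other pairs of IgG genes 74.2% to 76.4%.

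The joining chain attaches to a cysteine in the tail of secreted IgM and IgA. The last 57 coding bases of the secreted forms are shown for these isotypes and for Ighg2b, with that cysteine codon in capitals, at chr12:113420867-113420923 (Ighm), chr12:113258768-113258824 (Igha) and chr12:113306389-113306445 (Ighg2b).
Ighm tail: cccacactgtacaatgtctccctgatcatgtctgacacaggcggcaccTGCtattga
Igha tail: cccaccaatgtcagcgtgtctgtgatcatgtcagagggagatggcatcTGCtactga
Ighg2b tail: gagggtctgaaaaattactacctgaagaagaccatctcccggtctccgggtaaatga
In Ighm and Igha the cysteine codon is the last but 1 before the stop codon, and the same stretch of Ighg2b holds none.

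Values are FPKM, in which a gene's fragments are divided by its exon length and by the library's total, and these totals ran from 16152379 to 21667129. A count of 3 fragments corresponded to an FPKM of 0.138 to 0.186 for a gene of 1 kb. ND-RHL library 4 and AE-PF library 2 differed from the rest in transcripts of squamous epithelium and skeletal muscle. The squamous keratin gene Krt13 was at 2948 in ND-RHL library 4 and at 899 in AE-PF library 2, against at most 0.271 in the others. The summed FPKM of 8 skeletal muscle genes was 1712 in ND-RHL library 4 and 742 in AE-PF library 2, against 134 in saline library 3 and 3.29 to 21.5 in the other 9. ND-RHL library 4 also had Glycam1, a gene of lymph node vessels, at 4.69, against 0 to 0.129 elsewhere, and Ccl19, a chemokine of lymphoid tissue, at 14.9, against 0.191 to 1.53. These genes were singled out after their values were seen. ND-RHL library 4 and AE-PF library 2 are called the libraries with other tissues below. Where a member's call or a list's count changed markedly without both of them, the value without them is given too. The remaining libraries also held transcripts of other tissues. Summed FPKM of 5 fat genes was 858 in ND-RHL library 1 and 646 in saline library 1, and 5 heart genes summed to 679 in ND-RHL library 1.

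Both challenged groups held far more antibody RNA than saline lung, and the heavy chain mix differed. The summed FPKM of the 7 heavy chain genes was 473, 297, 244 and 1201 in ND-RHL libraries 1 to 4, 2231, 1579.9, 416 and 263 in AE-PF libraries 1 to 4, and 87.4, 61.4, 75.8 and 88.7 in saline libraries 1 to 4. Every ND-RHL and every AE-PF library lay above every saline library, while the ND-RHL and AE-PF ranges overlapped. AE-PF libraries 1 and 2 held several times the amount of libraries 3 and 4 of their group. In bulk tissue fewer cells of a type and less RNA per cell cannot be told apart.

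**Figure D1:**
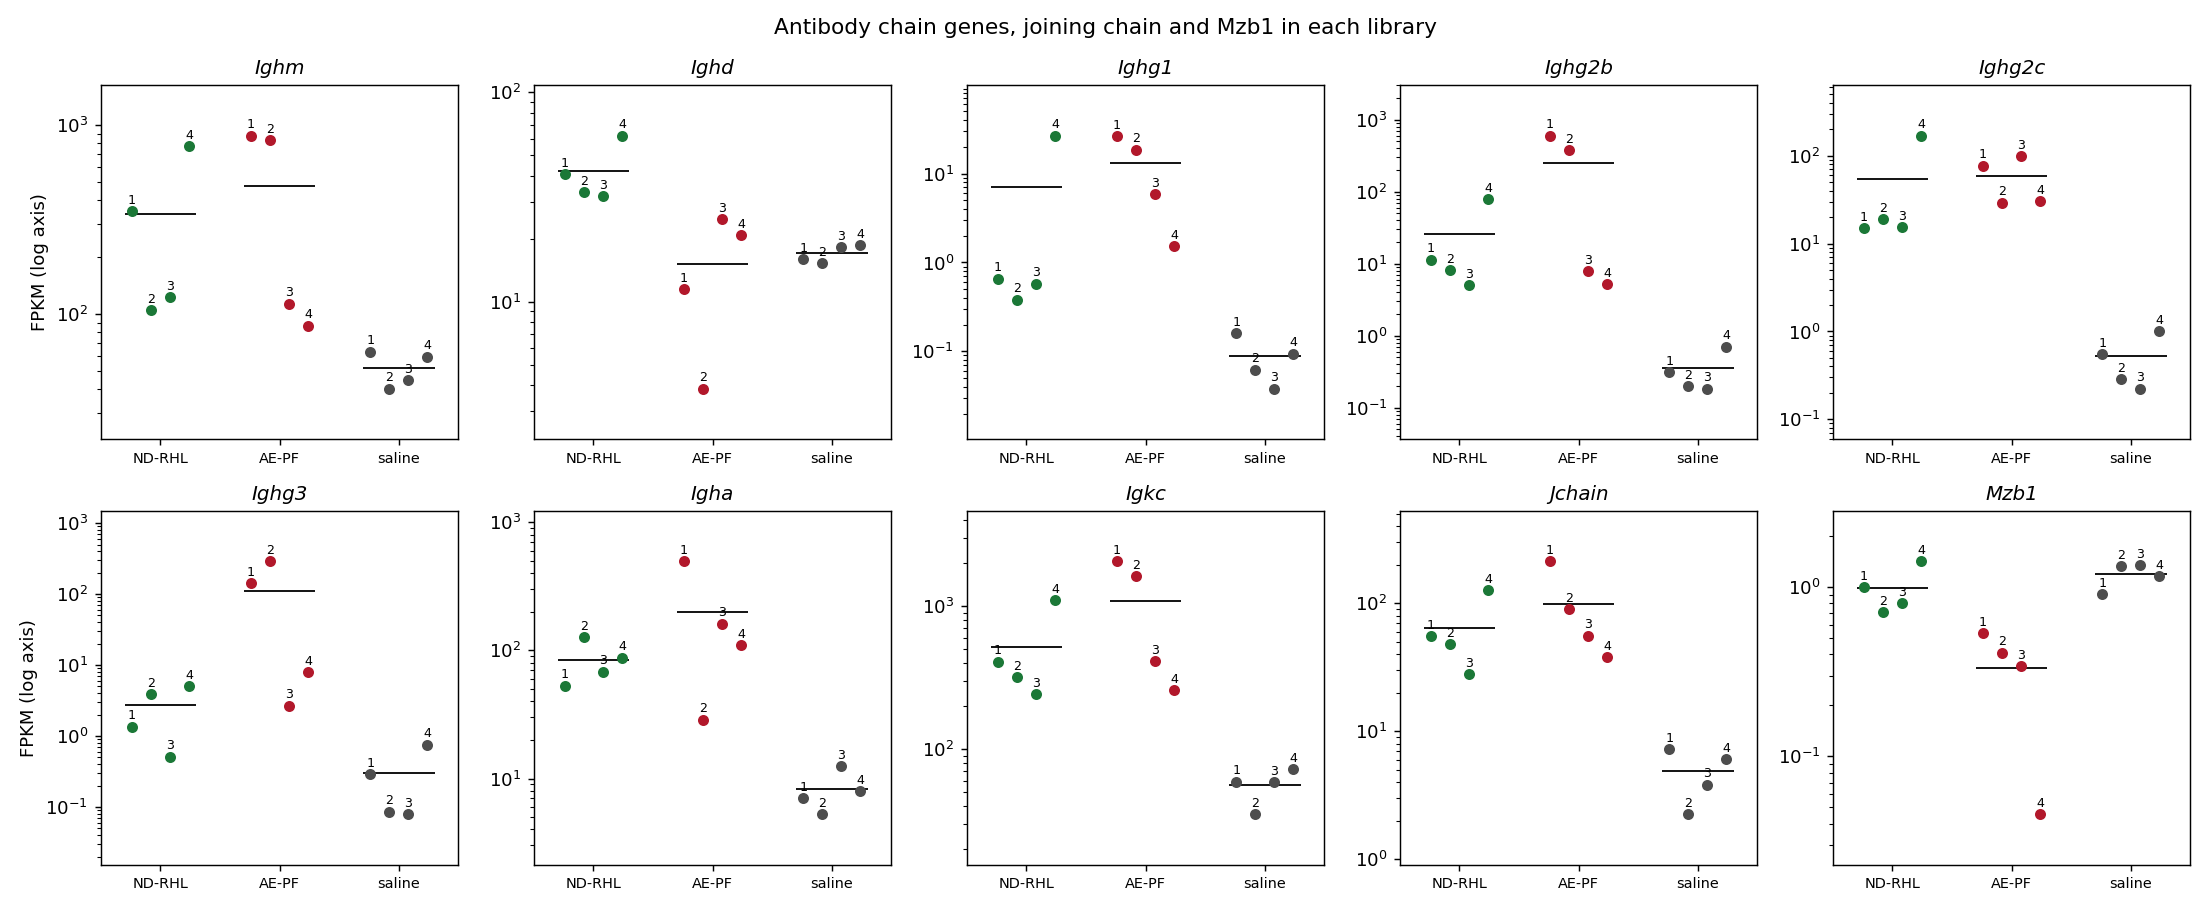
FPKM (log axis, each panel with its own range) of the 10 genes in each library; points are libraries with their number, and lines are group means. Between AE-PF and saline, 8 genes are higher without overlap, Ighd overlaps and Mzb1 is lower, and AE-PF libraries 1 and 2 sit far above libraries 3 and 4 for Ighm, Ighg2b, Ighg3 and Igkc.

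Ighm encodes the heavy chain of IgM, the first antibody a B cell makes. It stood at 351, 105, 123 and 771 in ND-RHL libraries 1 to 4, at 878, 832, 113 and 86.8 in AE-PF libraries and at 63.1, 40.3, 44.4 and 59.5 in saline libraries. All 8 challenged libraries exceeded the saline range, and the ND-RHL and AE-PF ranges overlapped. Ighd encodes IgD, the partner of IgM on naive B cells. It stood at 40.8, 33.3, 31.9 and 62.2 in ND-RHL libraries, at 11.5, 3.84, 24.7 and 20.7 in AE-PF libraries and at 15.9, 15.3, 18.3 and 18.7 in saline libraries. Every ND-RHL library was above every AE-PF and saline library, and the lowest Ighd values were in AE-PF libraries 1 and 2, where Ighm was highest.

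The 4 IgG genes encode the main switched isotype of serum. They were near the detection limit in saline lung, with 22 to 88 fragments over all 4 genes in a library. Ighg1 stood at 0.657, 0.382, 0.577 and 26.7 in ND-RHL libraries, at 26.2, 18.6, 5.81 and 1.51 in AE-PF libraries and at 0.160, 0.0625, 0.0383 and 0.0944 in saline libraries, the last from 2 to 9 fragments. ND-RHL library 4 stood alone in its group, at the level of AE-PF library 1. Ighg2b stood at 11.4, 8.14, 5.04 and 78.5 in ND-RHL libraries, at 600.0, 377, 7.92 and 5.26 in AE-PF libraries and at 0.310, 0.201, 0.185 and 0.708 in saline libraries. Its AE-PF libraries fell into a pair above 370 and a pair below 10, and the lower pair lay within the ND-RHL range. Ighg2c stood at 15.0, 18.9, 15.4 and 169.7 in ND-RHL libraries, at 77.4, 29.3, 99.9 and 30.3 in AE-PF libraries and at 0.557, 0.285, 0.224 and 1.01 in saline libraries. ND-RHL libraries 1 to 3 were below every AE-PF library, and ND-RHL library 4 was above all of them. Ighg3 stood at 1.36, 3.89, 0.513 and 5.03 in ND-RHL libraries, at 142, 290.3, 2.68 and 8.01 in AE-PF libraries and at 0.294, 0.0859, 0.0790 and 0.755 in saline libraries. AE-PF libraries 1 and 2 were again far above the rest, and the lowest ND-RHL library lay within the saline range.

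Igha encodes IgA, the antibody of mucosal surfaces. It stood at 53.1, 128, 68.2 and 88.0 in ND-RHL libraries, at 496, 28.9, 162 and 110.2 in AE-PF libraries and at 7.08, 5.26, 12.5 and 8.02 in saline libraries. Here AE-PF library 2, high in IgM, Ighg2b and Ighg3, was the lowest of all challenged libraries. Igkc encodes the kappa chain, the light chain of most mouse antibodies. Its values were 409.5, 321, 242 and 1108 in ND-RHL libraries, 2065, 1620.0, 416 and 259 in AE-PF libraries and 59.4, 35.1, 58.7 and 72.3 in saline libraries. Jchain stood at 55.4, 47.7, 28.1 and 127 in ND-RHL libraries, at 213, 90.3, 55.9 and 38.1 in AE-PF libraries and at 7.30, 2.25, 3.84 and 6.07 in saline libraries. For Igkc and Jchain all challenged libraries lay above saline, and ND-RHL library 4 and AE-PF library 1 led their groups.

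Mzb1, at chr18:35647267-35649367 on the minus strand, went another way. It stood at 0.994, 0.713, 0.806 and 1.42 in ND-RHL libraries, at 0.532, 0.410, 0.340 and 0.0455 in AE-PF libraries and at 0.912, 1.33, 1.35 and 1.16 in saline libraries. Every AE-PF library was below every library of the other groups, although plasma cells are known for high Mzb1. These values rest on 1 to 33 fragments per library. In the annotation 57.2% of the exon bases of Mzb1 also belong to a gene named SPATA24 on the same strand, and the sources used here do not say how fragments in shared bases were counted. The part of this overlap in the Mzb1 values was not tested.

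The comparison of ND-RHL with AE-PF lung asks what the treatment changed in challenged lung. It used the AE-PF libraries that were among those known when the genes were chosen. By limma on log2(FPKM + 1), with Benjamini-Hochberg adjustment over 15164 genes and a threshold of 0.05, 2 of the 10 genes were higher and 1 was lower in ND-RHL lung. Of all genes tested, 24.3% were higher and 17.4% lower, or 41.8% in either direction, beside 3 of these 10. With libraries scaled to equal FPKM totals the shares of all genes were 15.5% higher and 25.6% lower, and the count among the 10 was the same. Groups did not overlap for Ighd and Mzb1, both higher, against 21.2% of all genes higher and 15.6% lower without overlap (36.8% in all). Ighd averaged 42.1 ± 14.0 in ND-RHL lung and 15.2 ± 9.38 in AE-PF lung (SD, n = 4 each), a log2 difference of 1.62 ± 0.43 (SE) with a limma adjusted p of 0.0117. Without both of the libraries with other tissues the Ighd difference was 0.92, with an adjusted p of 0.0109. Mzb1 averaged 0.983 ± 0.313 in ND-RHL lung and 0.332 ± 0.207 in AE-PF lung, a log2 difference of 0.58 ± 0.14 with an adjusted p of 0.00797. It exceeded an FPKM of 1 in ND-RHL library 4 and saline libraries 2, 3 and 4 alone, the least the filter allowed, so it was not tested when any of these was left out. No AE-PF library reached that level, so Mzb1 passed the filter only through the groups where it was high, and its call carries no weight.

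Ighg3 was the 1 gene that passed as lower. It ranged from 0.513 to 5.03 in ND-RHL lung and from 2.68 to 290.3 in AE-PF lung, a log2 difference of -3.42 ± 1.17 with a limma adjusted p of 0.0359, although the groups overlapped. The call was lost without AE-PF library 1 (0.105), AE-PF library 2 (0.0864) or ND-RHL library 1 (0.0756), 2 (0.0507) or 3 (0.0916). It was also lost without ND-RHL library 4 and AE-PF library 2 together (0.0754), with no filter (0.0773), with limma-voom on recovered fragments (0.142) and with a fit of only these groups (0.0876). The other 7 genes did not pass, with log2 differences of -0.26 for Ighm, -1.63 for Ighg1, -1.97 for Ighg2b, -0.77 for Ighg2c, -0.66 for Igha, -0.84 for Igkc and -0.52 for Jchain. Their standard errors were 0.55 to 1.41 and their adjusted p 0.191 to 0.82. These intervals are wide, and a miss of the threshold does not show that the groups were alike. Without ND-RHL library 4, Ighg2c (-1.59, adjusted p = 0.00968) and Ighg1 (-2.67, adjusted p = 0.00826) were below the threshold as lower. Ighg1 then passed the filter through the 4 AE-PF libraries alone, the group where it was high, so its call there carries no weight. Without both of the libraries with other tissues Ighg2c passed as lower (-1.85, adjusted p = 0.00408), and without AE-PF library 2 alone Igha did (-1.36, adjusted p = 0.0456). Ighm changed sign with the library left out: it was higher in ND-RHL lung, by 0.07 to 0.27, without AE-PF library 1 or 2 or ND-RHL library 2 or 3. The median log2 difference of the 10 genes was -0.71, against 0.06 over all genes.

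**Figure D2:**
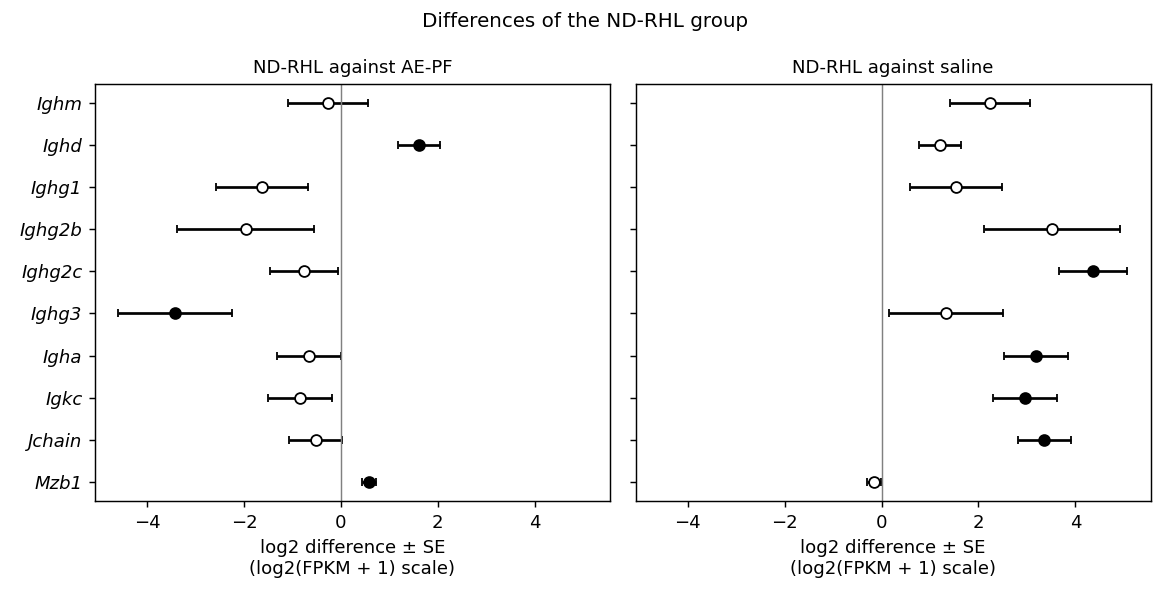
Log2 difference on the log2(FPKM + 1) scale with its standard error for the 10 genes, ND-RHL against AE-PF on the left and ND-RHL against saline on the right; filled points have an adjusted p under 0.05 by limma. Ighd and Mzb1 are higher and Ighg3 is lower against AE-PF, and Ighg2c, Igha, Igkc and Jchain are higher against saline. Mzb1 passed the filter without any AE-PF library.

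The comparison of ND-RHL with saline lung asks what remained different after treatment. It used the saline libraries, whose values were also known when the genes were chosen. The 10 genes are therefore not an unselected set beside the shares of all genes. Ighg2c, Igha, Igkc and Jchain were still well above control. By limma 4 of the 10 genes were higher and 0 were lower, against 13.3% higher and 8.65% lower of all 15164 genes tested (21.9% in all), or 13.9% and 6.74% with equal FPKM totals. At an unadjusted p under 0.05, 7 were higher, against 21.7% of all genes, and 0 were lower, and limma-voom also called 0 lower. Ighg2c averaged 54.8 ± 76.7 in ND-RHL lung and 0.520 ± 0.360 in saline lung, a log2 difference of 4.37 ± 0.70 with an adjusted p of 0.00197. That call was lost with limma-voom (adjusted p = 0.0626). Jchain averaged 64.6 ± 43.2 in ND-RHL lung and 4.87 ± 2.26 in saline lung, a log2 difference of 3.36 ± 0.55 with an adjusted p of 0.00224. Igha averaged 84.3 ± 32.3 in ND-RHL lung and 8.22 ± 3.08 in saline lung, a log2 difference of 3.19 ± 0.66 with an adjusted p of 0.00744. Igkc averaged 520.3 ± 398 in ND-RHL lung and 56.4 ± 15.5 in saline lung, a log2 difference of 2.97 ± 0.66 with an adjusted p of 0.00997. These 4 differences are larger than the spread between libraries by this test.

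The remaining 6 genes did not pass against saline in the main fit, whose spread is shared over all 3 groups, AE-PF lung included. Ighm (log2 difference 2.23, adjusted p = 0.076), Ighd (1.21, 0.0659), Ighg1 (1.54, 0.272) and Ighg2b (3.52, 0.0967) had no overlap with saline lung, while Ighg3 (1.33, 0.449) and Mzb1 (-0.15, 0.487) overlapped it. In all, 8 of the 10 genes lay higher without overlap, and 0 lay lower, against 18.1% higher and 11.8% lower of all genes tested (29.9% in all). Same-numbered ND-RHL and saline libraries correlated weakly in their deviations from group means (r of 0.11 to 0.40), and some of different number as strongly. With the replicate number as a block over all 3 groups Ighd passed by limma (adjusted p = 0.0497), which made 5 genes. Same-numbered ND-RHL and AE-PF libraries 2 and 4 ran in opposite directions (r of -0.36 and -0.39), so this block is not an established pairing. Ighd also passed with limma-voom (0.0425), without AE-PF library 2 (0.00587), without AE-PF library 3 (0.0486) and without both of the libraries with other tissues (0.00939). With only these groups in the fit, Ighm (0.0266), Ighd (0.00415) and Ighg2b (0.00942) joined the 4, and with a pseudocount of 0.1 Ighg2b did (0.0313). The differences of the IgG genes depend on the pseudocount, since nearly all saline values lie below 1, and Ighg1, Ighg2b and Ighg3 passed the filter without any saline library at an FPKM of 1. The median of the 10 genes was 2.60, against 0.03 over all genes.

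AE-PF and saline lung are compared by description only. The log2 differences were 2.50 for Ighm, -0.41 for Ighd, 3.17 for Ighg1, 5.48 for Ighg2b, 5.13 for Ighg2c, 4.75 for Ighg3, 3.85 for Igha, 3.80 for Igkc, 3.88 for Jchain and -0.72 for Mzb1. Of the 10 genes, 8 lay higher without overlap and 1, Mzb1, lay lower without overlap, beside 25.3% and 29% of all genes tested (54.3% in all). By limma 26.4% of all genes were higher and 30.2% lower in AE-PF lung (56.6% in all), and 35.6% and 20.7% with equal FPKM totals, a scaling that shifted the median log2 difference of all genes to 0.09, against -0.03. The median of the 10 genes was 3.83 without that scaling. The spread inside the AE-PF group was wide. Its highest library exceeded its lowest 114-fold for Ighg2b, 108-fold for Ighg3, 17.3-fold for Ighg1, 17.2-fold for Igha and 10.1-fold for Ighm, but 3.40-fold for Ighg2c.

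Isotype shares set each heavy chain against the sum of the 7 in its library, so a rise in 1 isotype lowers the shares of the others. IgG made up 6.02%, 10.5%, 8.83% and 23.3% of heavy chain FPKM in ND-RHL libraries 1 to 4, 37.9%, 45.3%, 27.9% and 17.2% in AE-PF libraries and 1.51%, 1.03%, 0.696% and 2.90% in saline libraries. All challenged libraries were above saline, and ND-RHL libraries 1 to 3 were below every AE-PF library. IgM made up 56.0 ± 16.9% in ND-RHL lung, 38.1 ± 10.9% in AE-PF lung and 65.9 ± 5.58% in saline lung (SD, n = 4 each). IgD made up 8.63%, 11.2%, 13.0% and 5.18% in ND-RHL libraries, 0.516%, 0.243%, 5.94% and 7.89% in AE-PF libraries and 18.2% to 24.8% in saline libraries. IgD was below 0.6% in AE-PF libraries 1 and 2, and no saline library overlapped a challenged one. The lower share in ND-RHL lung was not a lower amount: Ighd FPKM was 31.9 to 62.2 there and 15.3 to 18.7 in saline lung. IgA made up 11.2%, 43.0%, 27.9% and 7.32% in ND-RHL libraries, 22.2%, 1.83%, 38.9% and 41.9% in AE-PF libraries and 8.09% to 16.5% in saline libraries. By FPKM, IgA was the leading isotype in ND-RHL library 2 and AE-PF libraries 3 and 4, and nearly missing from AE-PF library 2.

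FPKM divides by all annotated exon bases of a gene, which for Ighg2b is 2678 bases against 1114 in the secreted transcript and for Ighg2c 1326 against 1111, since exons of the membrane form count toward the length. Shares were therefore also computed from fragments over the secreted transcript's length, a choice made after seeing the data. IgG was then 12.4 ± 9.05% in ND-RHL lung, 35.0 ± 21.0% in AE-PF lung and 1.78 ± 1.16% in saline lung. The order of these group means was kept, but the leading isotype changed in some libraries. IgA then also led in ND-RHL library 3 (38.6%, against 36.1% IgM). IgG led in AE-PF libraries 1 (45.2%) and 2 (59.5%), where IgM led by FPKM. IgD reached 31.8% in saline lung, with its fragments divided by 802 secreted bases in place of 1900 exon bases. That treats all Ighd RNA as the secreted form, which was not tested. The widest 95% Wilson interval of a share of fragments spanned 4.00 percentage points, which covers counting error only. For the rare IgG genes of saline lung the intervals were wide relative to the share: IgG as a whole was 0.713% of heavy chain fragments in saline library 3, with an interval of 0.471% to 1.08%.

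**Figure D3:**
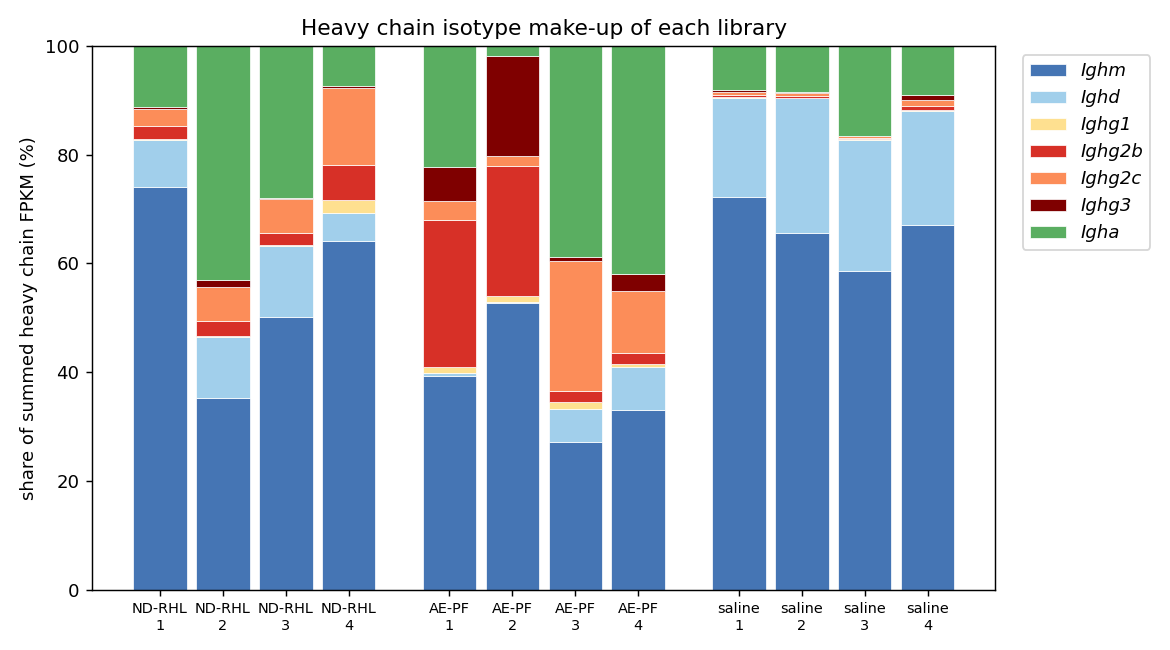
Share of each heavy chain gene in the summed heavy chain FPKM (%) of each library, one stacked bar per library. IgG genes take 6.02% to 23.3% of the bar in ND-RHL, 17.2% to 45.3% in AE-PF and 0.696% to 2.90% in saline, and Ighg2b and Ighg3 fill most of the IgG part in AE-PF libraries 1 and 2.

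The leading IgG gene was Ighg2c in every ND-RHL library, while the AE-PF group split into pairs. Ighg2c made up 52.8%, 60.4%, 71.6% and 60.6% of IgG FPKM in ND-RHL libraries 1 to 4, and Ighg3 there was 1.80% to 12.4%. In AE-PF libraries 1 and 2 Ighg2b made up 71.0% and 52.7% of IgG FPKM and Ighg3 16.7% and 40.6%, whereas Ighg2c made up 9.16% and 4.10%. In AE-PF libraries 3 and 4 Ighg2c led with 85.9% and 67.2%. By secreted transcript length Ighg2c still led in ND-RHL libraries 2 to 4 and in AE-PF libraries 3 and 4, but in ND-RHL library 1 Ighg2b (54.8%) came before Ighg2c (35.8%). The ratio of Ighg2b to Ighg2c by FPKM ranged from 0.327 to 0.760 in ND-RHL lung, from 0.0793 to 12.8 in AE-PF lung and from 0.557 to 0.825 in saline lung. Of the secreted transcripts, 5.26% of the 50-base windows of Ighg2b also occur in another heavy chain gene, and 5.27% of those of Ighg2c, while no 100-base window is shared among the 7 genes. The sources used here do not say how reads that match several genes were treated.

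Of the ratios between genes, Ighm over Ighd set AE-PF libraries 1 and 2 apart from 3 and 4. It was 8.59, 3.15, 3.85 and 12.4 in ND-RHL libraries, 76.3, 216, 4.58 and 4.19 in AE-PF libraries and 2.43 to 3.96 in saline libraries. ND-RHL libraries 2 and 3 lay within the saline range, AE-PF libraries 3 and 4 just above it, and AE-PF libraries 1 and 2 far above it. Jchain over the sum of Ighm and Igha, whose tails carry the joining cysteine, was 0.137 to 0.205 in ND-RHL lung, 0.105 to 0.203 in AE-PF lung and 0.0494 to 0.104 in saline lung. In both challenged groups every library was above the highest saline library, though AE-PF library 2 (0.105) only barely exceeded saline library 1 (0.104). Igkc over summed heavy chains was 0.965 ± 0.0925 in ND-RHL lung, 0.984 ± 0.0424 in AE-PF lung and 0.710 ± 0.109 in saline lung (SD, n = 4 each). Lambda light chains (Iglc1 to Iglc3) made up 4.18%, 3.74%, 4.64% and 5.55% of light chain FPKM in ND-RHL libraries, 12.9%, 2.62%, 4.59% and 3.83% in AE-PF libraries and 8.61% to 10.7% in saline libraries. AE-PF library 1 was above the saline range and the other 7 challenged libraries were below it, and Iglc1, a lambda constant gene, stood at 289 in AE-PF library 1.

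**Figure D4:**
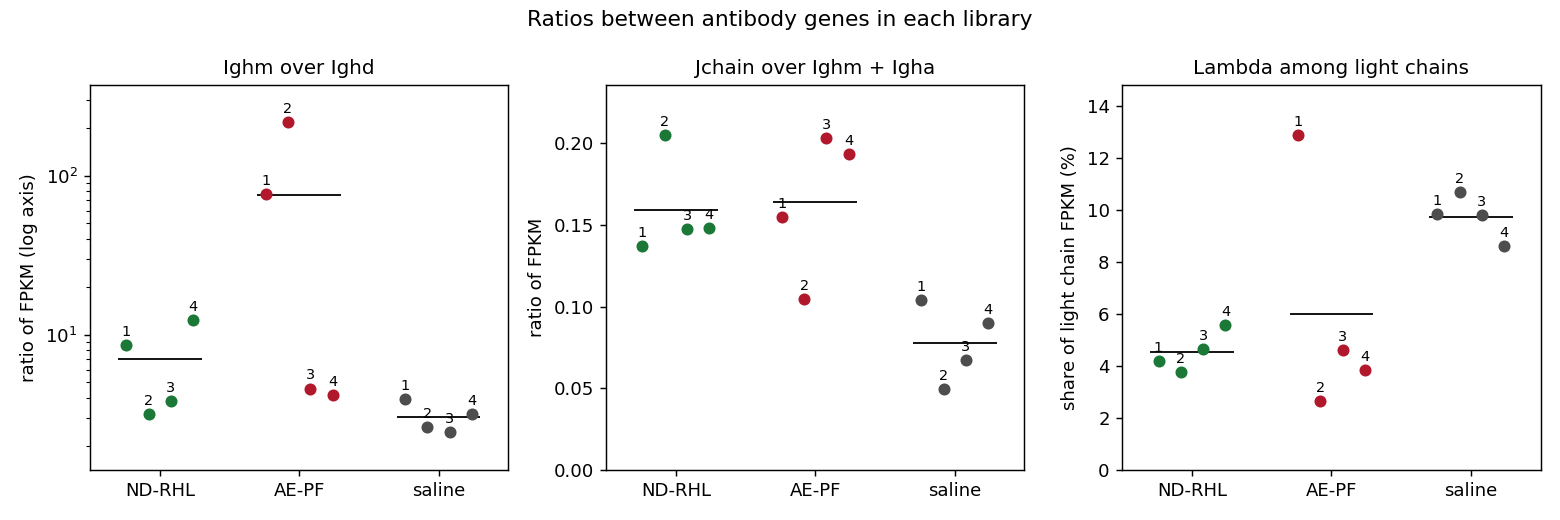
Ratio of Ighm to Ighd (log axis), ratio of Jchain to Ighm plus Igha, and lambda share of light chain FPKM (%) per library; points are libraries with their number, lines are group means. AE-PF libraries 1 and 2 stand out in Ighm over Ighd (76.3 and 216), and AE-PF library 1 in the lambda share (12.9%).

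Other antibody chain genes were mostly too low to test, 4 of 9 passing the filter. Over all genes, limma called 24.3% higher and 17.4% lower in ND-RHL against AE-PF lung, and 13.3% and 8.65% against saline lung. Between AE-PF and saline lung these shares were 26.4% and 30.2%. The counts of this list and of those below stand beside these shares. Against AE-PF lung 1 was higher and 0 were lower in ND-RHL lung, namely Vpreb3, a surrogate light chain gene of B cells (10.1 ± 3.39 against 3.69 ± 1.34, adjusted p = 0.00221 by limma). Against saline lung 1 was higher, Iglc2, with 7.99 ± 5.25 in ND-RHL lung and 2.39 ± 0.470 in saline lung (adjusted p = 0.0326). Without both of the libraries with other tissues 0 of the 4 passed against saline lung. In AE-PF lung Iglc1 was higher than in saline lung (85.4 ± 136 and 2.88 ± 0.801, adjusted p = 0.0145, a call lost with limma-voom) and Vpreb3 lower (3.69 ± 1.34 and 13.9 ± 2.18, adjusted p = 0.000137). The IgE gene Ighe was at 4.35 in ND-RHL library 4, with 120 fragments, and at 0 to 0.927 elsewhere. It was singled out after its values were seen.

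Genes of naive and mature B cells, like Ighd, were mostly higher in ND-RHL lung than in either other group. Of 16 B cell genes, all tested, 14 were higher and 0 lower in ND-RHL lung than in AE-PF lung, with a median log2 difference of 1.27 against 0.06 over all genes. Ms4a1, which encodes CD20, stood at 7.86, 5.44, 4.52 and 12.3 in ND-RHL libraries, at 1.23, 0.716, 3.47 and 3.30 in AE-PF libraries and at 2.98, 2.42, 3.35 and 4.56 in saline libraries. AE-PF libraries 1 and 2, the highest in Ighm and Igkc, were the lowest in Ms4a1. The ND-RHL difference from AE-PF was 1.46 ± 0.34 (adjusted p = 0.0063 by limma). Fcrla (8.01 ± 2.86 against 2.77 ± 1.11, adjusted p = 0.00152), Pax5, the transcription factor of B cell identity (4.04 ± 1.50 against 1.11 ± 0.664, adjusted p = 0.00165), and Cd79b, a chain of the B cell receptor (29.6 ± 9.04 against 9.71 ± 4.93, adjusted p = 0.00226), had the smallest p. Against saline lung 10 of the 16 were higher in ND-RHL lung and 0 were lower, with a median of 0.93. Between AE-PF and saline lung limma called 0 of 16 in either direction at a median of -0.37, as did limma-voom, and 0 were higher and 1 lower at an unadjusted p under 0.05. Without both of the libraries with other tissues the counts were 12 higher against AE-PF, 10 higher against saline, and 0 higher and 1 lower between AE-PF and saline.

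Plasma cell genes as a list ran with antibody transcripts over the libraries, while single genes differed. Their geometric mean level, from log2(FPKM + 1) over all 16, was 7.85, 7.75, 6.91 and 9.27 in ND-RHL libraries 1 to 4. It was 10.3, 8.27, 7.92 and 7.66 in AE-PF libraries and 5.54 to 6.19 in saline libraries. Within each challenged group the libraries ranked as they did in summed heavy chain FPKM. Of 14 tested of 16, 1 was higher and 5 were lower in ND-RHL lung than in AE-PF lung (median -0.10), 5 were higher and 1 was lower than in saline lung (median 0.24), and AE-PF lung had 9 higher and 0 lower than saline lung (median 0.52). With equal FPKM totals these counts were 0 and 5, 5 and 1, and 10 and 0, and without both of the libraries with other tissues they were 0 and 6, 3 and 1, and 9 and 0. In the same order, the main shares over all genes were 24.3% and 17.4%, 13.3% and 8.65%, and 26.4% and 30.2%. Many of these genes are also used by other secreting cells of the lung. Xbp1, the transcription factor of the secretory programme, stood at 66.7, 65.3, 57.9 and 60.4 in ND-RHL libraries, at 118, 95.5, 85.9 and 84.8 in AE-PF libraries and at 90.3, 87.9, 99.8 and 92.0 in saline libraries. Every ND-RHL library was below every library of the other groups, with log2 differences of -0.60 from AE-PF (adjusted p = 0.0008) and -0.56 from saline (adjusted p = 0.00306). Xbp1 was the 1 gene of this list called lower in ND-RHL than in saline lung, where 5 were higher. Ssr4 and Edem1, which serve protein entry and disposal in the endoplasmic reticulum, were lower in ND-RHL lung than in AE-PF lung (15.7 ± 0.428 against 22.1 ± 3.16, adjusted p = 0.00252, and 20.1 ± 2.38 against 27.6 ± 2.66, adjusted p = 0.00427). Pou2af1, a coactivator of B cells and plasma cells, was higher in ND-RHL lung than in saline lung (13.6 ± 8.37 against 3.26 ± 0.775, adjusted p = 0.00657), as was Slamf7 (5.72 ± 1.07 against 1.64 ± 0.152, adjusted p = 0.0187). Txndc5, a disulphide isomerase, was higher in AE-PF lung than in saline lung (57.6 ± 7.28 against 36.4 ± 1.58, adjusted p = 5.76e-05). Sdc1, a surface marker of plasma cells that epithelium also carries, averaged 77.1 ± 7.28 in ND-RHL, 79.2 ± 5.20 in AE-PF and 67.2 ± 1.99 in saline lung. It passed in AE-PF against saline (adjusted p = 0.0156) and in neither ND-RHL comparison (0.669 and 0.076).

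**Figure D5:**
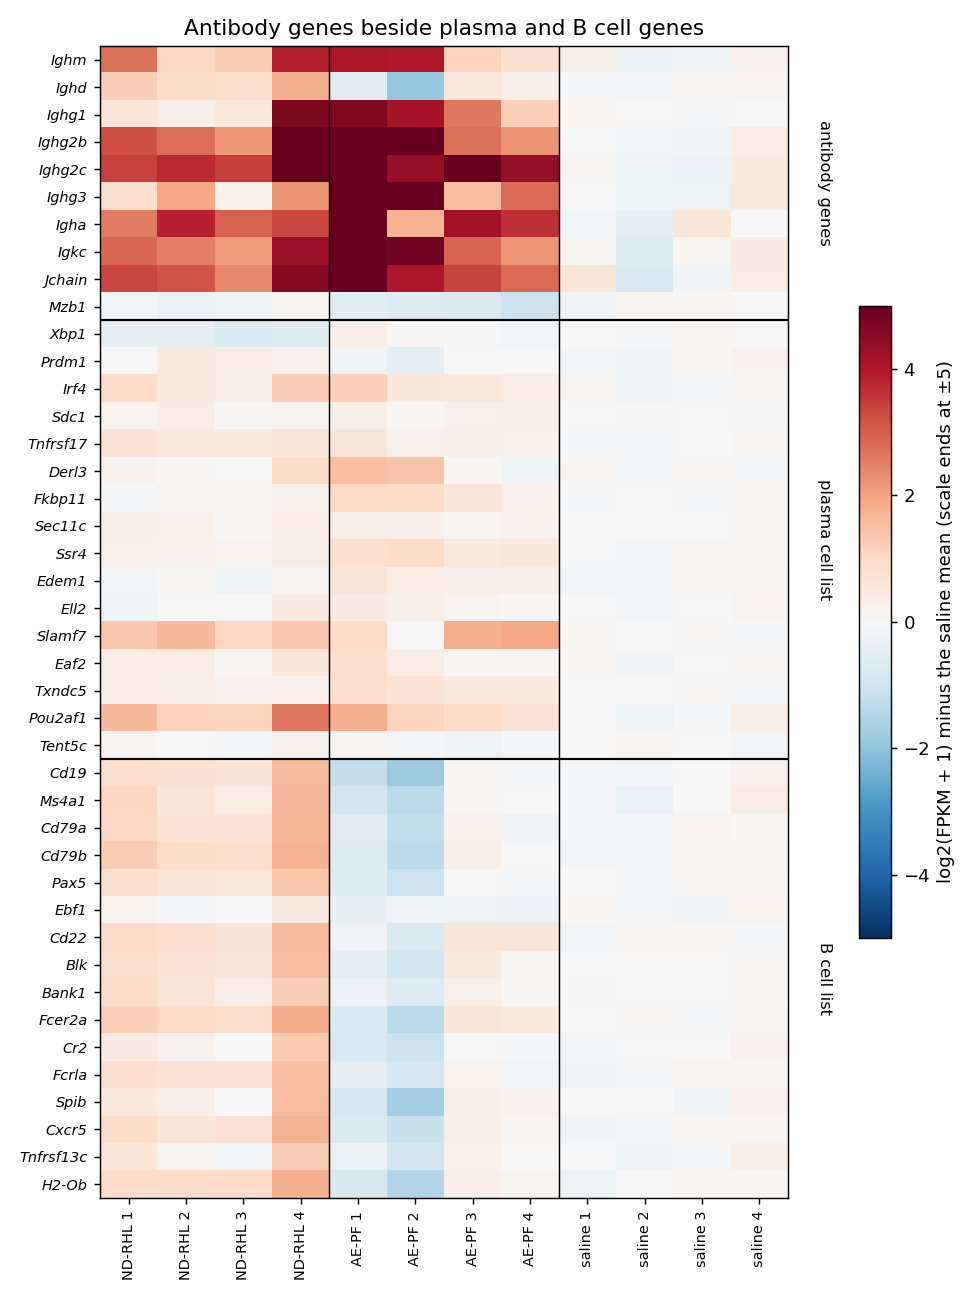
Log2(FPKM + 1) minus the saline mean for the 10 antibody genes, 16 plasma cell genes and 16 B cell genes (rows) in 12 libraries (columns); the colour scale ends at 5 in either direction. B cell genes are pale blue in AE-PF libraries 1 and 2, where Ighm and Igkc are highest, and red in ND-RHL library 4.

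Genes of class switching and germinal centres, the sites where B cells mature, were partly too low to test (7 of 12 tested). Against AE-PF lung limma called 0 higher (1 at an unadjusted p under 0.05 and 1 by limma-voom) and 2 lower in ND-RHL lung, against saline lung 2 were higher and 1 lower, and AE-PF lung had 4 higher and 2 lower than saline lung (5 and 1 with equal FPKM totals). Without both of the libraries with other tissues these were 2 higher and 0 lower in ND-RHL against saline lung and 5 higher and 1 lower in AE-PF against saline lung. Shares over all genes in the 3 comparisons were 24.3% and 17.4%, 13.3% and 8.65%, and 26.4% and 30.2%. Cxcl13, the chemokine that draws B cells into follicles, stood at 21.4, 6.62, 4.21 and 18.6 in ND-RHL libraries, at 71.5, 124, 34.1 and 43.1 in AE-PF libraries and at 3.37, 3.85, 2.76 and 4.20 in saline libraries. Its 3 groups did not overlap, if barely so between ND-RHL and saline, and it was lower in ND-RHL lung than in AE-PF lung by limma (log2 difference -2.41 ± 0.49, adjusted p = 0.00268).

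Survival and homing factors of plasma cells had 2 higher and 2 lower of 6 tested (of 13) in ND-RHL against AE-PF lung, 1 higher and 0 lower against saline lung, and 3 higher and 1 lower in AE-PF against saline lung. Beside these stand 24.3% and 17.4%, 13.3% and 8.65%, and 26.4% and 30.2% of all genes. Cxcl12, a chemokine that holds plasma cells in their niche, was lower in ND-RHL lung than in AE-PF lung (37.8 ± 4.03 against 78.6 ± 4.66, adjusted p = 6.5e-05 by limma). Tnfsf13, which encodes the survival factor APRIL, was higher (1.56 ± 0.230 against 0.710 ± 0.201, adjusted p = 0.000845). Tnfrsf13b, the receptor TACI, was higher in ND-RHL lung than in saline lung (8.41 ± 1.80 against 4.34 ± 0.366, adjusted p = 0.00192).

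Receptors that bind or carry antibody changed in opposite ways. Of 10 tested of 12, 3 were higher and 5 lower in ND-RHL lung than in AE-PF lung, 4 were higher and 1 lower than in saline lung, and AE-PF lung had 6 higher and 3 lower than saline lung. With equal FPKM totals these counts were 2 and 6, 5 and 1, and 6 and 2. The main shares over all genes were 24.3% and 17.4%, 13.3% and 8.65%, and 26.4% and 30.2%, in the same order. Pigr stood at 22.8, 7.64, 13.6 and 7.73 in ND-RHL libraries, at 4.42, 11.1, 4.08 and 6.31 in AE-PF libraries and at 69.2, 35.5, 24.5 and 25.3 in saline libraries. Both challenged groups were below saline lung without overlap, with log2 differences of -1.51 for ND-RHL (adjusted p = 0.025 by limma) and -2.37 for AE-PF (adjusted p = 0.000571), and ND-RHL did not pass against AE-PF (0.86, adjusted p = 0.117). Summed FPKM of 8 lung epithelium genes was 19186 to 39629.7 in ND-RHL, 6361 to 10967 in AE-PF and 39743 to 55343 in saline lung, and its part in the Pigr values was not tested. Fcgr2b, the inhibitory IgG receptor, averaged 11.5 ± 1.73 in ND-RHL, 36.1 ± 6.45 in AE-PF and 6.13 ± 0.625 in saline lung, lower in ND-RHL lung than in AE-PF lung (adjusted p = 2.31e-05) and higher than in saline lung (adjusted p = 0.00223). The activating receptor gene Fcgr1 (4.40 ± 1.14 against 12.0 ± 0.903, adjusted p = 4.75e-05) and the shared signalling chain Fcer1g (53.1 ± 4.91 against 94.8 ± 3.50, adjusted p = 5.97e-05) were also lower in ND-RHL lung than in AE-PF lung.

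Markers of other tissues that could hold antibody-secreting cells moved between libraries. Of 11 T cell genes, 4 were higher and 0 lower in ND-RHL lung than in AE-PF lung and 8 were higher and 0 lower than in saline lung. AE-PF lung had 1 higher and 0 lower than saline lung (3 and 0 with equal FPKM totals), and 7 of 10 were higher without both of the libraries with other tissues. For this list and the next, all genes gave 24.3% and 17.4%, 13.3% and 8.65%, and 26.4% and 30.2% in the main fit. Summed FPKM of 11 lymphoid tissue genes was 93.6, 91.0, 85.6 and 216 in ND-RHL libraries, 212, 209, 186 and 176 in AE-PF libraries and 57.1 to 76.9 in saline libraries, so ND-RHL library 4, the highest of its group in Ighm, Igkc and all 4 IgG genes, was also the highest in these. Of the 5 lymphoid genes tested, Cxcl13 among them, 1 was higher and 1 lower in ND-RHL lung than in AE-PF lung, while without both of the libraries with other tissues 0 were higher and 2 lower. On this list limma and limma-voom called 0 in ND-RHL against saline lung (2 higher at an unadjusted p under 0.05), and 2 were higher in AE-PF lung than in saline lung. Glycam1 was at 0 to 0.0554 in AE-PF libraries, AE-PF libraries 1 and 2 included, and at 0 in saline libraries. Krt13 was listed at 0 in AE-PF library 1, the library with the most Igkc. Summed FPKM of 5 fat genes was 20.4 to 858 in ND-RHL, 2.28 to 26.8 in AE-PF and 123 to 646 in saline lung, and of 5 heart genes 131 to 679 in ND-RHL, 25.8 to 46.8 in AE-PF and 312 to 545 in saline lung. Red blood cell genes (6 genes) summed to 798 to 1730.5 in ND-RHL, 287 to 868 in AE-PF and 513 to 1506 in saline lung. The part of these tissues in the antibody values was not tested.

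The genes whose values ran most like an antibody gene over the 12 libraries, by Pearson correlation of log2(FPKM + 1) among 15005 genes that are not antibody genes, were described for 4 members. For Ighm they were Gm9616 (0.93), Pter, Nmnat3, 2410006H16Rik and Arhgef10l (0.91). For Igha they were Ucp2 (0.96), Lyn, Tspyl3, Casp8 and Itgb2 (0.95). For Ighg2b they were Plekhf1 (0.95), Psma6, Ctse, Syne3 and Nsmce2 (0.94), and for Jchain they were Csnk1a1 (0.98), Vps41, Cops4, Trp53inp1 and Kcnab2 (0.96). The 12 points share 3 groups and their depth, so these coefficients describe a common pattern over groups and libraries. With Spearman correlation 1 of the 5 genes was shared in each case. No gene of the plasma cell or B cell lists was among the 20.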

How the data were processed

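Polyadenylated RNA of 12 lung libraries was sequenced on a DNBSEQ-G400 instrument after NEBNext Ultra preparation, per the labels' protocols. The authors deposited FPKM values, scaled for gene length and library total, for 35599 genes in 12 separate columns. Per the submitters' processing notes the tools included STAR 2.7.9a, Trim Galore 0.6.6, Subread 2.0.1 with featureCounts, FastQC and DESeq2 1.30.1, and the build was GRCm38; their roles and order are not stated there. The sources used here do not give strand and multi-mapping settings. The table's positions are not those of GRCm38, so coordinates and sequences come from GENCODE M21, matched by gene identifier.

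Whole fragments were recovered from the FPKM values for 100% of genes within 0.001 fragments, using annotated exon lengths for 34140 and searched lengths for 1459. Intervals and floors cover counting error only. Groups and replicate numbers came from sample titles.

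Genes were kept where 4 or more libraries reached an FPKM of 1. Their log2(FPKM + 1) values were tested 2-sided with limma's trended variance (limma 3.58.1, R 4.3.3) and Benjamini-Hochberg adjustment. All 12 libraries shared 1 spread with 9 residual degrees of freedom. All 10 members passed the filter. The fold scale understates changes of low genes. The code was tested on simulated data. Means are given with SD over 4 libraries.

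The members and the 14 gene lists were chosen with earlier results of these data known. Named genes were the members, of each list the up to 3 with the smallest p in a comparison, Sdc1, Xbp1, Ms4a1 and Pigr, and 5 genes most like each of 4 members; 1 gene that the rule also named is not reported here. The main fit used no pairing, and a block for the replicate number, from the titles, was fitted as an alternative. Same-numbered ND-RHL and saline libraries correlated in their deviations from group means (r of 0.40, 0.19, 0.11 and 0.17 for numbers 1 to 4). Some libraries of different number correlated as strongly, such as ND-RHL 3 with saline 2 (0.32) and ND-RHL 2 with saline 3 (0.27), so any pairing is weak. Alternatives were another pseudocount (0.1), other filters, equal totals, limma-voom, fits of the groups compared, a replicate block and left-out libraries.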

Additional observations from a re-analysis of the deposited data

Results flagged for a closer look

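Among 42 sets of 4 libraries examined (a gene's values or an isotype's share in a group), 4 had a library far from the other 3. Chance flags about 1 in 20 independent sets of normal values. FPKM values and shares of 1 sum need not be independent or normal, so that rate may not hold here. In ND-RHL lung these were Ighg1 at 26.7, Ighg2b at 78.5 and Ighg2c at 169.7 FPKM, all in library 4, which also carried squamous, skeletal muscle and lymphoid tissue transcripts. The part of those tissues in the IgG values was not tested. In saline lung the IgA share of library 3 was 16.5%, above 8.09%, 8.56% and 9.04% in libraries 1, 2 and 4. Summed skeletal muscle FPKM was 134 in that library, against 8.41 to 17.6 in the other saline libraries, and its part in the share was not tested.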

How the results depend on the processing

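Of the counts and shares recomputed, 196 stayed within 1.5 times or 1 SD of the reported value and 28 moved. Of single members, 541 values kept their side, 13 gained and 10 lost a call, 7 untested values moved and 4 turned sign, all of these Ighm in ND-RHL against AE-PF (0.27 without AE-PF library 1, 0.24 without AE-PF library 2, 0.14 without ND-RHL library 2 and 0.07 without ND-RHL library 3, with a range of -0.84 to 0.27 over all libraries left out). In ND-RHL against AE-PF the number of members lower was 0 with no filter, with limma-voom and with only the groups compared, and 0 to 3 with 1 library left out. The number higher was 1 at an FPKM of at least 5, with only the groups compared and with ND-RHL library 4 and AE-PF library 2 both left out, and 1 to 2 with 1 library left out, since Mzb1 then missed the filter. In ND-RHL against saline, members higher numbered 7 with only the groups compared, and calls over all genes ranged from 2008 to 3953 with 1 library left out, against 3323. AE-PF against saline had 5710 calls at an FPKM of at least 5, where fewer genes were tested, against 8578. Over secreted transcript length, chosen after seeing the data, IgD was 13.2% in ND-RHL, IgM was 26.2% in AE-PF, and saline had 50.9% IgM, 31.8% IgD and 15.5% IgA. With Spearman correlation 1 of 5 similar genes was shared for Ighm, Igha, Ighg2b and Jchain (1 in each). The replicate block gave 6061 calls against 6332 (ND-RHL against AE-PF, members unchanged at 2 higher and 1 lower), 2916 against 3323 (ND-RHL against saline) and 8471 against 8578 (AE-PF against saline), and it changed no call of a member but that of Ighd. Over all pairs of groups same-numbered libraries correlated at -0.39 to 0.40, with 5 of 12 above 0.1. Depth limits Ighg1 to Ighg3 in saline lung and Mzb1 in every library. Other causes of these moves were not tested.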
